A study of Oryza sativa with 6 samples.

Results

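The auxin genes of rice seedlings were followed in a CHR729 mutant and in wild type. CHR729 is a CHD-type chromatin remodelling gene. Members were genes whose symbol or synonym in the rice gene table follows the naming of 1 of 7 auxin families (IAA, ARF, PIN, GH3, YUCCA, TAR or SAUR with a number). The rule found 72 genes, of which 60 had at least 1 probe set that named no other gene, out of 17905 genes with such a probe set on the array. These 60 genes were read by 75 probe sets, and 12 of them by more than 1. The brightest probe set over all arrays stood for a gene in every summary. The other 12 genes (ARF5, ARF6, ARF8, ARF19, ARF21, ARF25, IAA11, IAA29, PIN1A, PIN1B, PIN1C and PIN5B) are not analysed here.

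The mutant group was 3 seedling samples with a T-DNA mutation in CHR729, and the other group was 3 samples of wild-type seedlings of the cultivar Hwayoung, with 1 Affymetrix Rice Genome Array per sample. Both were 11 days old and had grown on agar with sucrose, in 14 h light periods at 28 °C and 10 h dark periods at 24 °C. Samples of a group are biological replicates by their titles, but the cultivar behind the mutant, the number of insertion lines and the number of seedlings per sample are not stated, so p-values measure only the spread between these samples. No probe set was paired with CHR729 in the gene tables, so its own transcript was not used to check the labels.

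Auxin moves from cell to cell through PIN efflux carriers and is made from tryptophan by TAA or TAR aminotransferases followed by YUCCA monooxygenases. In its absence Aux/IAA proteins bind ARF transcription factors and hold their target genes off, and auxin leads to the breakdown of the Aux/IAA proteins. Genes of the Aux/IAA, GH3 and SAUR families are themselves known as early auxin-response genes, and GH3 enzymes remove active auxin by joining it to amino acids. In seedlings the hormone is known for its part in crown and lateral root formation, in shoot gravitropism and in the outgrowth of tillers.

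Values are linear probe set signals from the authors' MAS5 processing. Array medians lay between 67.6 and 71.1, and a signal under its array's median is called dim here. Signals of different probe sets depend on their probes and are not compared as transcript levels. Of the 6 leaf markers 5 were above the array median on all arrays, among them the Rubisco small subunit gene OsrbcS (15800 to 16602), and RBCS1, another small subunit gene, was dim on all arrays (mean 14.5 in wild type and 14.9 in the mutant). Of the 4 flower markers MADS1, MADS6 and MADS15 were dim on all arrays, and MADS14 was above the median on all, with a mean of 134 in wild type and 160 in the mutant. Of 7 root markers 1 rose, OsSCR1 (a regulator of root tissue layers), from 61.9 ± 2.36 (SD, n = 3) to 90.2 ± 9.65. OsSHR1 was also higher on every mutant array, with a mean of 52.5 in wild type and 69.6 in the mutant, but was not called. NRT2.2, NRT2.3, Lsi2 and IRT1 were dim on all arrays. The summed signal of the root markers was 576 to 627 in wild type and 570.4 to 627 in the mutant. Lsi1 gave the largest part of it, with means of 342 and 306. The 6 leaf markers summed to 39181 to 40629 and to 36144 to 39899, with 1 lower. Of 8 seed markers 4 were dim on all arrays and GLUA2 was lower, and the sums of all 8 were 820.2 to 844 and 659 to 709. The 4 flower markers summed to 200.1 to 252 and to 247 to 262, with no calls by limma and none with an unadjusted p under 0.05. No marker was listed at 0, and the part of tissue make-up in the auxin gene values was not tested. In such bulk samples fewer cells of a type and less RNA per cell cannot be told apart.

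Setting the mutant against wild type addressed which auxin transcripts differ when CHR729 is mutated. IAA6, IAA21 and PIN3A fell in the mutant, and IAA31, IAA7 and ARF17 rose. The falls were 1.6-fold, 1.23-fold and 1.82-fold, and the rises 1.49-fold, 1.37-fold and 1.48-fold. These folds and all log2 differences are mutant against wild type on the log2(signal + 32) scale, which understates the change of dim probe sets. A gene was called when limma's adjusted p over all 57258 probe sets was under 0.05.

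The 6 called genes are 10% of the 60, where 19.6% of all genes were called on their brightest probe set, 10.9% as higher and 8.71% as lower. Over all probe sets, named or not, the share was 9.91%, and 9 of the 75 auxin probe sets (12%) were called. The share of called auxin genes was therefore below that of all genes, and the difference was not tested. The median log2 difference of the 60 genes was 0.00, against 0.01 over all genes, with 30 above 0 and 30 below. Their median size regardless of sign was 0.13, against 0.16 over all genes. No auxin gene reached a log2 difference of 1 in either direction. Wild-type and mutant arrays did not overlap for 21 of the 60 genes (35%), whereas 42.9% of all genes had no overlap.

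Counts were also taken within ranges of signal. Among the 46 auxin genes above the array median on all arrays 5 were called (10.9%), where 22.3% of the 13801 genes in that range were called. Of the 9 auxin genes that were dim on all arrays limma called none and 1 had an unadjusted p under 0.05, where 3.67% of such genes were called. Of the 5 auxin genes on both sides of the array median 1 was called (20%), IAA7. The share over all genes was not taken for that range. The 95% interval of the log2 difference lay within 0.5 of 0 for 45 of the 60 genes and within 1 for 58. Only PIN3A and SAUR39 had an interval that reached beyond 1.

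**Figure D1:**
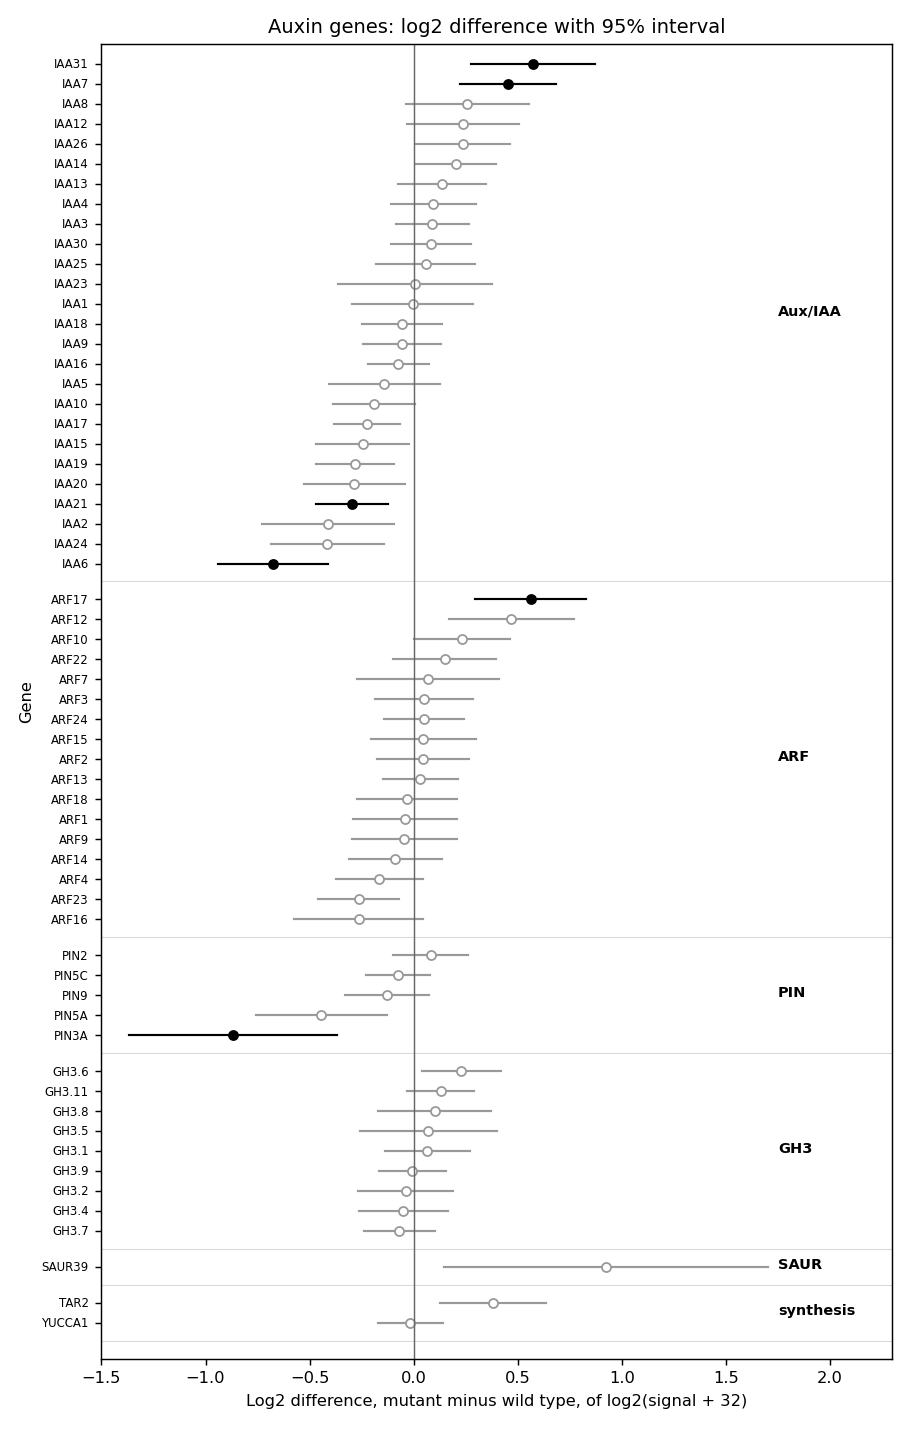
Log2 difference (mutant minus wild type, horizontal axis) of the 60 auxin genes, ordered within each family, from the brightest probe set per gene. Points are limma estimates from 3 arrays per group and bars are 95% intervals, with filled black points for the 6 genes that passed the threshold; the Aux/IAA family spreads to both sides of 0, while the GH3 genes lie between -0.07 and 0.23.

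The number of auxin genes called depended on single arrays. On leaving out mutant replicate 1, 2 or 3 in turn it was 4, 1 and 2, and on leaving out wild-type replicate 1, 2 or 3 it was 7, 1 and 9. The number called over all probe sets, 5672 with all arrays, moved as well. It was 4439, 2274 and 2787 without each mutant replicate, and 4922, 3135 and 6349 without each wild-type replicate. Lost calls of single auxin genes below are to be read beside these counts. IAA6 was called in each of these and in all 15 alternative settings tried.

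The families differed in how far their members spread. Of 26 Aux/IAA genes, the repressors of auxin response, 2 rose and 2 fell (15.4%), with a median of -0.03 and a median size of 0.21. Of 17 ARF genes, the transcription factors that bind auxin-responsive promoters, 1 rose (5.88%), with a median of 0.04 and a median size of 0.07. Of 5 PIN genes 1 fell (20%), with a median of -0.13. None of the 9 GH3 genes was called, and 1 had an unadjusted p under 0.05; their median was 0.07 and their median size 0.07. The synthesis genes TAR2 and YUCCA1 and the single SAUR gene were not called, though TAR2 and SAUR39 had an unadjusted p under 0.05. Differences between the families were not tested.

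IAA6 (LOC4326541), an Aux/IAA gene with a known part in drought tolerance and tiller outgrowth in rice, had wild-type signals of 2737, 2534 and 2226 and mutant signals of 1744, 1613 and 1319. Every mutant array lay well below every wild-type array. The log2 difference was -0.67 (SE 0.12, n = 3 per group, adjusted p = 0.0064). IAA21 (LOC4340939) had 2414, 2335 and 2485 in wild type and 1942, 1995 and 1932 in the mutant. Its groups were both tight and did not overlap, so that a small log2 difference of -0.30 (SE 0.08) passed with adjusted p = 0.0387. This call did not hold when any 1 of the 6 arrays was left out, with adjusted p from 0.0626 to 0.141.

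IAA31 (LOC4352722) had 421, 545 and 647 in wild type and 801, 807 and 802 in the mutant. Mutant arrays were nearly equal while the wild-type arrays differed among themselves, and the lowest mutant value stood above the highest wild-type value. The log2 difference was 0.57 (SE 0.13, adjusted p = 0.0234). IAA7 (LOC4328796) had 94.5, 77.1 and 66.4 in wild type, around the array median, and 127, 124 and 108 in the mutant. Its log2 difference was 0.45 (SE 0.10, adjusted p = 0.0208). The IAA31 call was lost on leaving out any mutant array or wild-type replicate 2 (adjusted p 0.0628 to 0.0964). That of IAA7 was lost on leaving out mutant replicate 1, mutant replicate 2 or wild-type replicate 2 (adjusted p 0.0718 to 0.0963).

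IAA31 has an Aux/IAA gene as its direct neighbour in the gene table, IAA30 (LOC4352721). IAA30 had 1136, 1158 and 1222 in wild type and 1300, 1193 and 1240 in the mutant, and these ranges overlap. Its log2 difference was 0.08 (95% interval -0.11 to 0.27, adjusted p = 0.653), while the interval of IAA31 was 0.27 to 0.87, so the 2 intervals meet. IAA31 minus IAA30, in log2 signal per array, was 0.49 higher in the mutant. The exact permutation p of 0.1 is the smallest that 3 against 3 arrays allow. IAA30 was chosen after its values were seen, so this p cannot decide whether the neighbours differ in their response. A second, dim probe set of IAA31 had a log2 difference of 0.02. The other neighbouring pair in the table, IAA11 and IAA12, had a value for IAA12 alone.

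**Figure D2:**
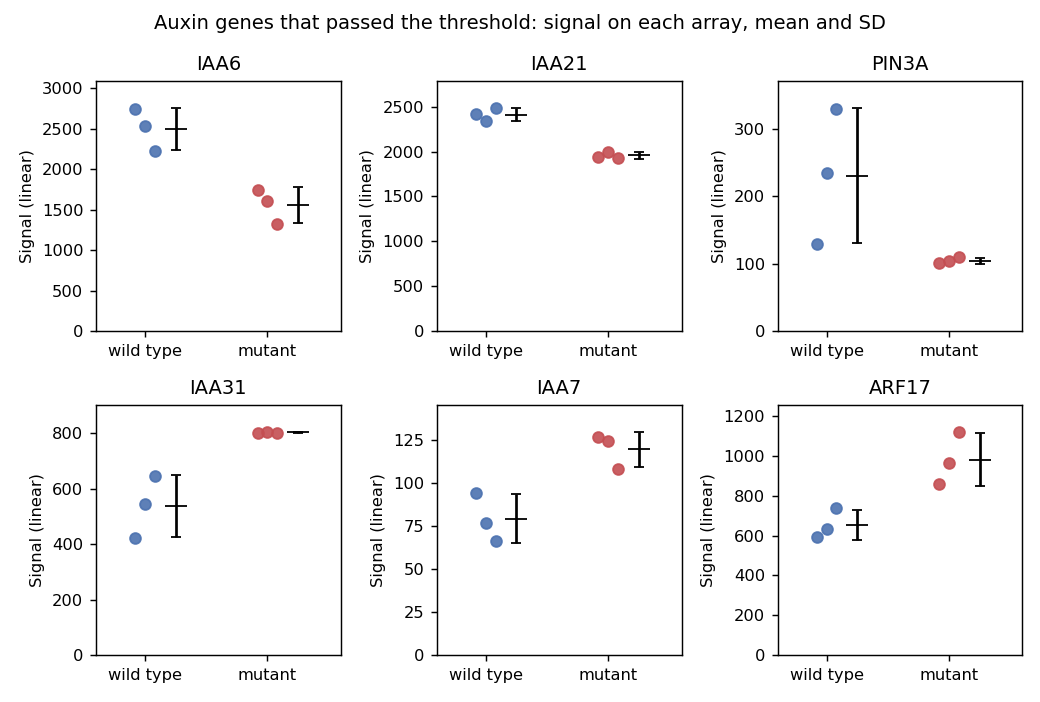
Signal (linear scale, axis from 0) on each of the 3 wild-type and 3 mutant arrays for the 6 auxin genes that passed the threshold; bars beside the points are mean and SD. In every panel the 2 groups are apart, and wild-type arrays of PIN3A range from 129 to 329 while its mutant arrays range from 101 to 109.5.

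A further 8 Aux/IAA genes had groups that did not overlap but missed the threshold, 6 of them lower in all mutant arrays. IAA24 (LOC4342573) had 885, 1015 and 1242 in wild type and 789, 806 and 718 in the mutant, with a log2 difference of -0.42 (SE 0.12, adjusted p = 0.06, and 0.0197 without wild-type replicate 1). IAA2 (LOC4326775) had 481, 543 and 531 against 475, 389.7 and 298. Here the mutant arrays were spread, the highest almost level with the lowest wild-type array, and the log2 difference was -0.41 (SE 0.14, adjusted p = 0.107). Without mutant replicate 1 the adjusted p was 0.0324, and on leaving out any other array it was 0.111 to 0.325. The log2 difference was -0.25 without mutant replicate 3. IAA19 had 89, 103 and 106 against 80.2, 70.2 and 76.9 (-0.28, SE 0.08, adjusted p = 0.0613), and was called without wild-type replicate 1. Leaving out any other array gave no call of IAA24 or IAA19.

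IAA17 (LOC4338160), the Aux/IAA gene with the highest wild-type signal, had 6567, 6428 and 6813 in wild type and 5788, 5803 and 5343 in the mutant. The groups were apart by more than their spread, but the log2 difference of -0.23 (SE 0.07) had adjusted p = 0.0792. Its probe set carries the suffix of probes shared by several transcripts. IAA15 (-0.25) and IAA10 (-0.19) were the remaining genes with all mutant arrays lower, and IAA14 (0.20) and the dim IAA26 (0.24) those with all mutant arrays higher. In total 8 of the 26 Aux/IAA genes lay below wild type on every mutant array and 4 above, which is 46.2% without overlap, close to the 42.9% of all genes.

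The other 14 Aux/IAA genes had overlapping groups and log2 differences from -0.29 (IAA20) to 0.26 (IAA8, which was called in 1 alternative only, without wild-type replicate 3). Among them are IAA13 and IAA23, genes with known roles in rice roots. IAA13, known from a mutant with fewer lateral roots, had 1730, 1579 and 1945 in wild type and 1946, 1908 and 1909 in the mutant (log2 difference 0.14, 95% interval -0.07 to 0.35). IAA23, needed for the quiescent centre of the root tip, had 434, 573 and 755 against 587, 632 and 514 (0.01, interval -0.36 to 0.38, with the sign turned when each array's median was subtracted). IAA3 had 3058, 2903 and 3237 against 3344, 3169 and 3274 (0.09, interval -0.09 to 0.27). For these 3 genes the mutant arrays lay within or just beside the wild-type range.

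Among the ARF genes, ARF17 (LOC4341841) had 591, 631 and 737 in wild type and 858, 964 and 1124 in the mutant. All mutant arrays were higher, and the log2 difference was 0.56 (SE 0.12, adjusted p = 0.0155). Leaving out mutant replicate 2, mutant replicate 3 or wild-type replicate 2 ended the call (adjusted p 0.066 to 0.0702). ARF12 (LOC4337363) had 722, 1053 and 1045 against 1263, 1302 and 1322. The mutant arrays were again all higher, with 1 low wild-type array, and the log2 difference of 0.47 (SE 0.14) had adjusted p = 0.0552, which was 0.0369 without wild-type replicate 3. On leaving out any other array the adjusted p of ARF12 was 0.0661 to 0.175. ARF12 and ARF17 are both relatives of the Arabidopsis activators ARF6 and ARF8. Of the 17 ARF genes ARF17 had the highest log2 difference and ARF12 the second-highest. This grouping was chosen after the values were seen. Only 17 of the 23 ARF genes had a probe set of their own, so relatives may be missing from it.

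No other ARF gene was called on its brightest probe set. The ETTIN-type genes ARF2 (LOC4325895), ARF3, ARF14 and ARF15, whose Arabidopsis relative shapes organ polarity and flower parts, had log2 differences of 0.04, 0.05, -0.09 and 0.05, and their adjusted p ranged from 0.695 to 0.874. ARF10, ARF18 and ARF22, of the repressor type that microRNAs target, had 0.23 (SE 0.10, unadjusted p = 0.0471, adjusted p = 0.217), -0.03 and 0.15. Without wild-type replicate 3, and in no other alternative, ARF10 and ARF16 were also called. These groupings were chosen after the values were seen. ARF4 (LOC4326957), the ARF gene with the highest wild-type signal, had 2878, 2851 and 3146 against 2826, 2744 and 2357. Its groups just failed to overlap, with a log2 difference of -0.16 (SE 0.09, adjusted p = 0.357). On a second, dimmer probe set of ARF4 the groups overlapped (-0.18, adjusted p = 0.453).

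ARF23 (LOC4350610) had 706, 641 and 696 in wild type and 571, 557 and 556 in the mutant on its brighter probe set, with a log2 difference of -0.26 (SE 0.09, adjusted p = 0.0922). Its dimmer probe set had 456, 482 and 399 against 341, 316 and 354 and fell by 0.37 on the log2 scale (SE 0.10, adjusted p = 0.0406). Both probe sets had all mutant arrays below all wild-type arrays, and their 95% intervals, -0.46 to -0.07 and -0.59 to -0.15, overlap widely. ARF16 (LOC9270361) had a difference of the same size, -0.26, but with overlapping groups. ARF1, ARF7, ARF9 and ARF24 had log2 differences from -0.04 to 0.07, and ARF13 was dim on all arrays.

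PIN3A (LOC4326565), also named OsPIN3t, is an efflux carrier gene with a known part in root growth and drought response. It had 129, 234 and 329 in wild type and 101, 104 and 109.5 in the mutant. The wild-type arrays differed widely among themselves, yet the lowest stood above all mutant arrays. The log2 difference was -0.87 (SE 0.23, 95% interval -1.37 to -0.37, adjusted p = 0.036). A second, dimmer probe set had 86.7, 99.6 and 147 against 68.6, 61.9 and 69.2, and fell by 0.52 (SE 0.13, adjusted p = 0.0345), with the wild-type arrays in the same order. The call on the brighter probe set was lost on leaving out any array other than wild-type replicate 1, with adjusted p from 0.0649 to 0.126. Without wild-type replicate 3, the highest array, the log2 difference was -0.60.

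Of the other carriers, PIN5A (LOC4324368), of the short PIN type that is placed in internal membranes, had 169, 167 and 215 in wild type and 149.6, 139 and 94.4 in the mutant. All mutant arrays were lower, but the log2 difference of -0.44 (SE 0.14) had adjusted p = 0.0799. PIN9 (LOC4327533), a PIN gene of monocots, was dim on every array, with 39.5, 44.4 and 55.1 against 36.1, 45.9 and 36.8 (-0.13, adjusted p = 0.479). PIN2, known for root gravitropism, and PIN5C were also dim on every array, with log2 differences of 0.08 and -0.07. The 95% intervals of these 3 genes all included 0 and lay within 0.5 of it.

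GH3 transcripts gave the narrowest range of all families with more than 2 members, from -0.07 to 0.23. GH3.6 (LOC4337780) had 124, 127 and 146 in wild type and 161, 161 and 158 in the mutant. Mutant arrays were tight and above all wild-type arrays, and the log2 difference was 0.23 (SE 0.09, adjusted p = 0.136). GH3.8, an auxin-conjugating enzyme gene, had 117, 141 and 181 against 152, 166 and 154, where the mutant values lie inside the wild-type range (0.10, 95% interval -0.17 to 0.37). GH3.1 and GH3.2 had 0.07 and -0.04. GH3.7 had 117, 117 and 116 against 115, 110.3 and 104, so the groups were apart by a log2 difference of only -0.07 (SE 0.08, adjusted p = 0.68). The dim GH3.11 had 0.13 (SE 0.07, adjusted p = 0.347).

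The name match also took in GH3.5 (LOC4339756), known as OsJAR1, whose enzyme joins isoleucine to jasmonate rather than acting on auxin. It had the highest wild-type signal of the GH3 genes, with 509, 747 and 791 in wild type and 766, 693 and 663 in the mutant. The groups overlap, with a log2 difference of 0.07 (SE 0.15, adjusted p = 0.849). All 9 GH3 intervals lay within 0.5 of 0.

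SAUR39 (LOC9271092), known in rice as a negative regulator of auxin synthesis and transport, had the largest log2 difference of the 60 genes and was not called. Its signals were 76.2, 91.9 and 158 in wild type and 112, 225 and 440.1 in the mutant. The lowest mutant array lay inside the wild-type range, and the other mutant arrays lay above it. The log2 difference was 0.92 (SE 0.35, 95% interval 0.15 to 1.70, adjusted p = 0.144). Without mutant replicate 1 it was 1.35 with adjusted p = 0.0174, and without mutant replicate 3 it was 0.49 with adjusted p = 0.39.

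Among synthesis genes, TAR2 (LOC4325198), also named FIB, for a tryptophan aminotransferase of the main auxin route, had 219, 236 and 300.3 in wild type and 316, 347 and 342 in the mutant. All mutant arrays were higher, and the log2 difference of 0.38 (SE 0.11) had adjusted p = 0.0643. Without wild-type replicate 3 it was 0.50 with adjusted p = 0.0102. Leaving out any other array gave no call of TAR2. YUCCA1 (LOC9269185), for a monooxygenase of the following step, was dim on every array, with 50.4, 42.9 and 46.6 against 43.5, 45.1 and 48.6 (-0.02, SE 0.07, adjusted p = 0.934).

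**Figure D3:**
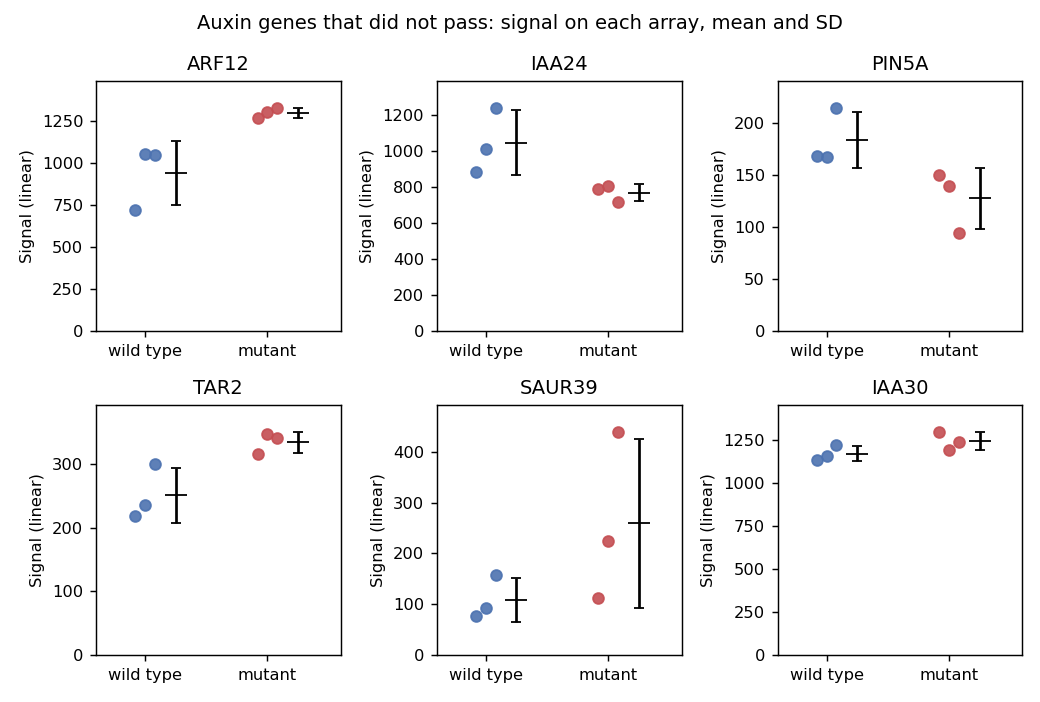
Signal (linear scale, axis from 0) on each array for 6 auxin genes that missed the threshold, with mean and SD beside the 3 points of each group. ARF12, IAA24, PIN5A and TAR2 have groups that do not overlap, SAUR39 has mutant arrays from 112 to 440.1, and IAA30 has overlapping groups.

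Of the 12 genes read by several probe sets, PIN3A was called on both. IAA31, IAA23 and ARF23 were called on 1 probe set only. The second IAA31 probe set was dim, with 45.9, 53.9 and 47.5 against 51.5, 48.1 and 50.8 and a log2 difference of 0.02 (adjusted p = 0.92), so the probe sets of IAA31 disagree. For IAA23 it was the dimmest of 3 probe sets that fell, with 37.6, 33.9 and 31 against 27, 19.2 and 16.8 (-0.33, SE 0.08, adjusted p = 0.0305). The brighter pair had 0.01 and 0.00, with adjusted p of 0.991 and 0.994. The other 8 genes had no called probe set with limma, with 2 probe sets (of IAA1 and IAA4) at an unadjusted p under 0.05. Of the 75 probe sets, 7 carry the suffix for probes that can match other transcripts. Among them are the called probe set of ARF23, the brighter one of PIN3A and the brightest of IAA23, IAA4, YUCCA1 and GH3.11.

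**Figure D4:**
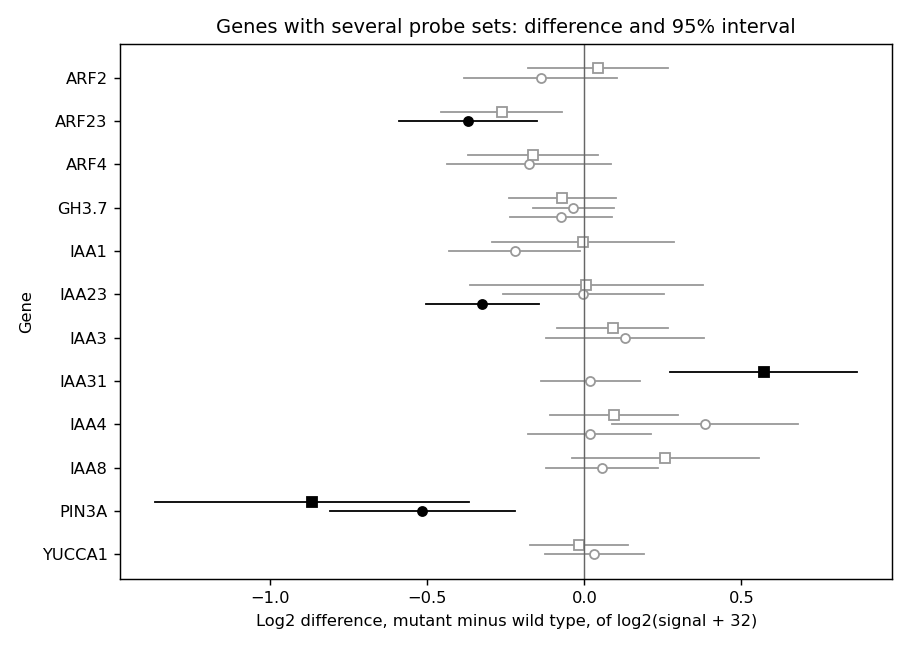
Log2 difference (mutant minus wild type, horizontal axis) with 95% interval for each probe set of the 12 genes that have more than 1. Squares are the brightest probe set of a gene, circles the others, and filled black marks passed the threshold; the 2 intervals of PIN3A lie below 0, and those of IAA31 do not overlap.

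Wild-type arrays varied more than mutant arrays. The SD of log2 signals was larger in wild type for 45 of the 60 auxin genes (75%), and for 65.4% of all genes. The median SD of the auxin genes was 0.15 in wild type and 0.08 in the mutant. PIN3A had the highest SD in wild type (0.59) and SAUR39 the highest in the mutant (0.86). Limma pools these spreads within each gene.

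Beside the 60 genes, 26 others with symbols or synonyms linked to auxin were measured, of which 1 rose and 1 fell (7.69%, against 19.6% of all genes). The name match does not show that each of them acts in the auxin pathway. ASB1 (LOC4336076), for a subunit of anthranilate synthase, which starts the tryptophan branch that feeds auxin synthesis, had 2859, 3091 and 3027 in wild type and 2131, 1890 and 1617 in the mutant. Every mutant array was far below wild type, and the log2 difference was -0.67 (SE 0.11, adjusted p = 0.00367). The genes ASB2, ASA1 and ASA2 of the same enzyme had -0.15, 0.00 and -0.11, with adjusted p of 0.507, 0.99 and 0.631. LBD6 (LOC4324906), of the LOB-domain factor family, had 182, 183 and 229 against 254, 276 and 301 and rose by 0.43 (SE 0.11, adjusted p = 0.0298). LBD6 was matched by its family name, and a part in auxin response was not tested. The probe set of LBD6 carries the suffix for probes that can match other transcripts. On leaving out mutant replicate 2 or 3, or wild-type replicate 1 or 2, LBD6 missed the threshold (adjusted p 0.075 to 0.121).

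Other genes of the pathway came close to the threshold. DAO (LOC4336150), whose enzyme oxidises auxin to an inactive form, had 666, 505 and 511 against 446, 393 and 284. The groups did not overlap, and the log2 difference of -0.55 (SE 0.16) had adjusted p = 0.0519, which was 0.0342 without mutant replicate 1. On leaving out any other array the adjusted p of DAO was 0.0589 to 0.173. ARGOS (LOC4335949), known for auxin-dependent organ size, had 141, 169.9 and 271 against 245, 382 and 403, with 1 mutant array inside the wild-type range (0.74, SE 0.21, adjusted p = 0.0531). It passed the threshold without mutant replicate 1 (0.95, adjusted p = 0.0216) and without wild-type replicate 3 (0.98, adjusted p = 0.0105). On leaving out any other array ARGOS had log2 differences of 0.57 to 0.68 and adjusted p of 0.141 to 0.195. The 3 measured genes of the TOPLESS type, corepressors that Aux/IAA proteins recruit, had -0.04 (OsTPR2), -0.14 (TPR3) and 0.17 (ASP1, dim on all arrays, adjusted p = 0.169).

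None of the 3 genes in the transport sublist was called by limma, and none had an unadjusted p under 0.05. LA1, the LAZY1 gene of shoot gravitropism, had 0.01, and OsPID, the PINOID kinase gene, had -0.01. The third, LAX1, had -0.03 (SE 0.13, adjusted p = 0.943), and in rice this symbol stands for a helix-loop-helix factor of panicle branching, so the symbol match put it among the 26 genes and the transport genes although it is no auxin influx carrier. Of 7 auxin amidohydrolase genes (ILL), which free auxin from its conjugates, limma called none, and ILL7, with 278, 288 and 255 against 217, 229 and 233, had an unadjusted p of 0.0188 (adjusted p = 0.121). Among root regulators OsCRL2, OsCRL3, OsCRL4 and OsWOX11 had log2 differences from -0.10 to 0.13.

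**Figure D5:**
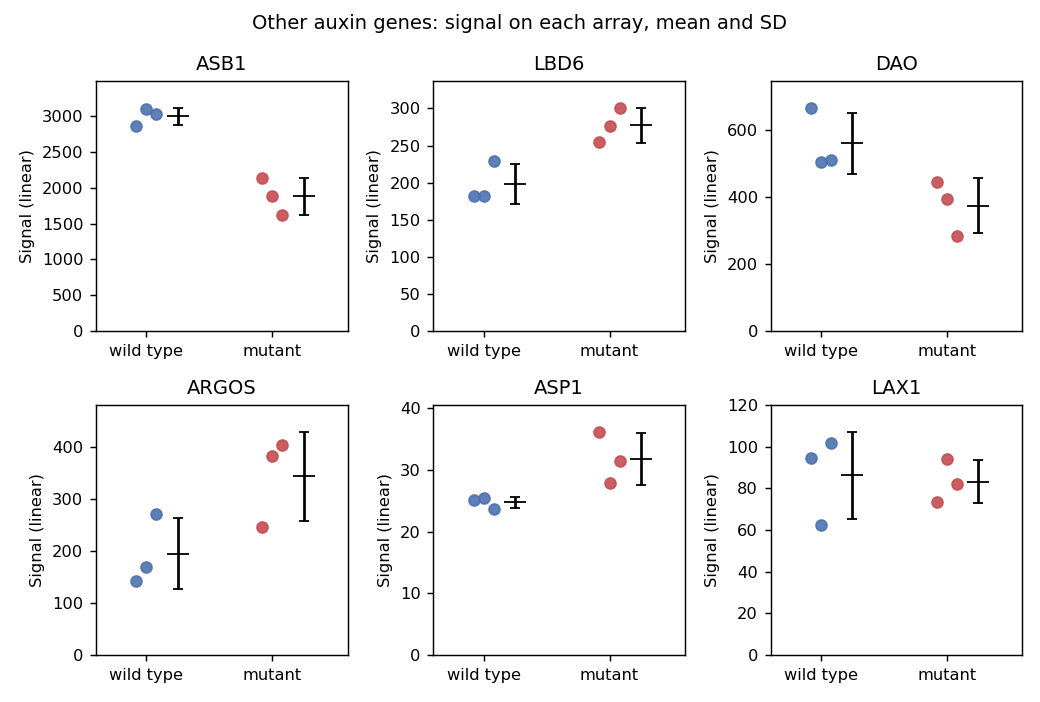
Signal (linear scale, axis from 0) on each array for 5 other genes and LAX1, a panicle branching factor, all matched by auxin-related symbols. Mean and SD stand beside the 3 points of each group. ASB1 and LBD6 passed the threshold, while DAO, ARGOS, ASP1 and LAX1 did not; ASB1 fell from about 2992 to 1879.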

How the data were processed

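RNA of 3 mutant and 3 wild-type seedling samples was measured on 6 arrays. Each deposited value is a linear intensity of a probe set, from MAS5 per the submitters' processing notes. No source used here gives its version or scaling target. With 6 arrays, their number sets the precision.

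Of the probe sets, 123 Affymetrix controls were left out and 57258 tested. Log2(signal + 32) was compared in limma 3.58.1 (R 4.3.3; lmFit, eBayes with intensity trend, 2-sided), with Benjamini-Hochberg adjustment over all tested probe sets. Folds are antilogs of the fitted differences, and intervals are at 95%. Tables were joined in pandas 2.3.3 (Python 3.11.15) and plots drawn with matplotlib 3.10.9. The fit was also run on simulated data drawn from its own variance model, which cannot check that model.

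Probe sets were joined to genes by Entrez identifier through the array's public annotation. 22436 named 1 gene, 95 several and 34727 none. Symbols and synonyms came from a RefSeq gene table (assembly ASM3414082v1), and 1 probe set shared by IAA10 and another gene was left out. Where synonyms were shared, a gene took the name no other member uses.

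Members and lists were chosen with earlier results of these data known. Named by rule were members called on any probe set, the 3 lowest p and the brightest gene of each family, uncalled members without overlap and a log2 difference of at least 0.5 (none), and called genes of the other pathway list (or the lowest p of a sublist with none). All other genes with values in the text were chosen after their values were seen. Alternatives changed the offset, normalization, filter, variance model, replicate block, arrays used and probe set summary. No sequences were used.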

Additional observations from a re-analysis of the deposited data

How the results depend on the processing

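Across 15 alternatives the log2 difference kept its sign for 41 of the 60 auxin genes and changed it in at least 1 for 19, and 16 genes were called in at least 1. Leaving out 1 array at a time gave 1 to 9 auxin genes called, 1 to 13 auxin probe sets called and 2274 to 6349 of all probe sets called. The ARF median then ranged from -0.016 to 0.065 and the GH3 median from -0.020 to 0.11. Without the dimmest 40% of probe sets the PIN median was -0.65 (2 genes left) and the synthesis value 0.38 (1 gene left), since the dim members drop out. Quantile normalization ended the IAA21 call (adjusted p = 0.0575) and added ARF12 (adjusted p = 0.0449). Averaging the probe sets of a gene ended the IAA31 call (0.30, adjusted p = 0.0908). Of the genes named by rule, 4 with main log2 differences near 0 changed sign. IAA23 was -0.0038 with array medians subtracted, -0.11 with probe sets averaged and -0.18 to 0.20 on leaving out arrays. YUCCA1 was 0.0079 with probe sets averaged and -0.050 to 0.018 on leaving out arrays, LAX1 -0.18 to 0.072 and GH3.5 -0.12 to 0.18. Deviations of same-numbered arrays correlated at -0.17 to 0.09 and of other arrays at -0.15 to 0.16, so same-numbered arrays did not stand out. These correlations cannot decide whether replicate numbers pair the samples, since each group has few arrays and the deviations within a group depend on each other. With the replicate block 7 auxin genes, 10 auxin probe sets and 5115 of all probe sets were called, without IAA21 (adjusted p = 0.087) and with ARF12 (0.0377) and SAUR39 (0.00473), and of the other pathway genes ARGOS (0.00426) and DAO (0.0152) passed. Other causes of lost calls were not tested. The tests of PIN2, PIN9, PIN5C and YUCCA1 rest on signals below the array median.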
